A study of Rattus norvegicus with 56 samples.

Results

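H3K27me3 was compared between ipsilateral brain tissue of rats given plasma after intracerebral haemorrhage and the same tissue without plasma, by chromatin immunoprecipitation and sequencing (ChIP-seq). The members are the H3K27me3 libraries of 3 groups, 4 ChIP libraries of the 28 in the series, each with an input library, and 56 libraries make up the series in all. They were taken by their labels, without regard to any measured value. All 3 groups are ipsilateral brain of rats that had bled into the brain (intracerebral haemorrhage). All were 21 months old by the sample labels, although the text of the series puts its old rats at 22 months. The first group received plasma of 3-month rats and has 1 ChIP library. The second received plasma of 22-month rats and also has 1. The last received no agent and has 2 ChIP libraries. Ipsilateral tissue of 13-month rats with haemorrhage and no agent, again with 2 ChIP libraries, served as a further yardstick.

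The labels give no strain, sex, number of animals, plasma dose, schedule or time after the bleed, and no group given a vehicle or saline was used here. The authors deposited 1 peak list per group, called on the pooled libraries of that group. No value therefore has a spread between replicates, none of the differences was tested between groups, and intervals on shares are 95% Wilson intervals that cover counting error only. The tissue is a mixture of cells, so fewer cells carrying the mark and less mark per cell cannot be told apart. No gene was assigned, because no source used here states the genome build of the lists. For the same reason the tissue label was not checked against marker genes.

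H3K27me3 is written by EZH1 or EZH2, the catalytic subunits of Polycomb repressive complex 2, and is bound by chromobox proteins of Polycomb repressive complex 1. It spreads over wide domains at silent developmental regulators such as the Hox clusters, and thinner stretches lie over other silent genes and between genes. Promoters that carry it together with H3K4me3, the mark of active and poised promoters, are called bivalent, and in adult brain many of them belong to genes of other lineages. H3K9ac marks active promoters and enhancers and is usually depleted where H3K27me3 is dense.

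The lists differ in depth and processing as well as in plasma. After removal of duplicates 41700562 ChIP tags stood behind the list with plasma of 3-month rats and 44383604 behind that with plasma of 22-month rats, against 117740131 without plasma. The ratios to the untreated list were 0.354 and 0.377. Duplicates made up 38% and 46% of the ChIP tags with plasma and 15% without. The plasma lists lie in another folder than the untreated 21-month lists by their file headers, called a processing run here, and the 13-month lists lie in a further one. Plasma, depth, number of libraries and run cannot be told apart in these comparisons. For that reason the 13-month contralateral list without plasma is set beside the results: it pools 2 libraries, yet has 35621686 ChIP tags, fewer than either plasma list, with 52% duplicates. It is shallow in ChIP tags only. Its input kept 80040152 tags, against 43282397 with plasma of 3-month rats and 50920353 with plasma of 22-month rats. The untreated 21-month ipsilateral input kept 111945251.

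Both plasma lists were far shorter than the untreated list. There were 37241 H3K27me3 peaks with plasma of 3-month rats and 51178 with plasma of 22-month rats, against 300668 without plasma. They covered 17.6 Mb and 21.6 Mb with plasma and 161 Mb without, which is 9.17 and 7.46 times as much. The 13-month ipsilateral list had 117866 peaks over 56.8 Mb, and the shallow 13-month contralateral list had 51805 peaks over 24.1 Mb. Size did not follow tag number alone, since the 21-month contralateral list without plasma had 367061 peaks over 197 Mb from 73142126 tags. Median peak length was 313 bp and 300 bp with plasma and 365 bp without.

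All lists were then cut to the 37241 peaks of highest −log10 q-value, the number in the shortest list. At equal number the peaks covered 17.6 Mb with plasma of 3-month rats and 17.1 Mb with plasma of 22-month rats, against 47.9 Mb without plasma. The untreated peaks that remained were longer, with a median of 901 bp against 313 bp and 305 bp with plasma. The weakest peak kept had a −log10 q-value of 1.31 and 2.90 with plasma and of 10.5 without. Equal numbers therefore still set weak plasma peaks beside strong untreated ones, and a further cut gave every list the same 17.6 Mb, which left 6888 untreated peaks.

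**Figure D1:**
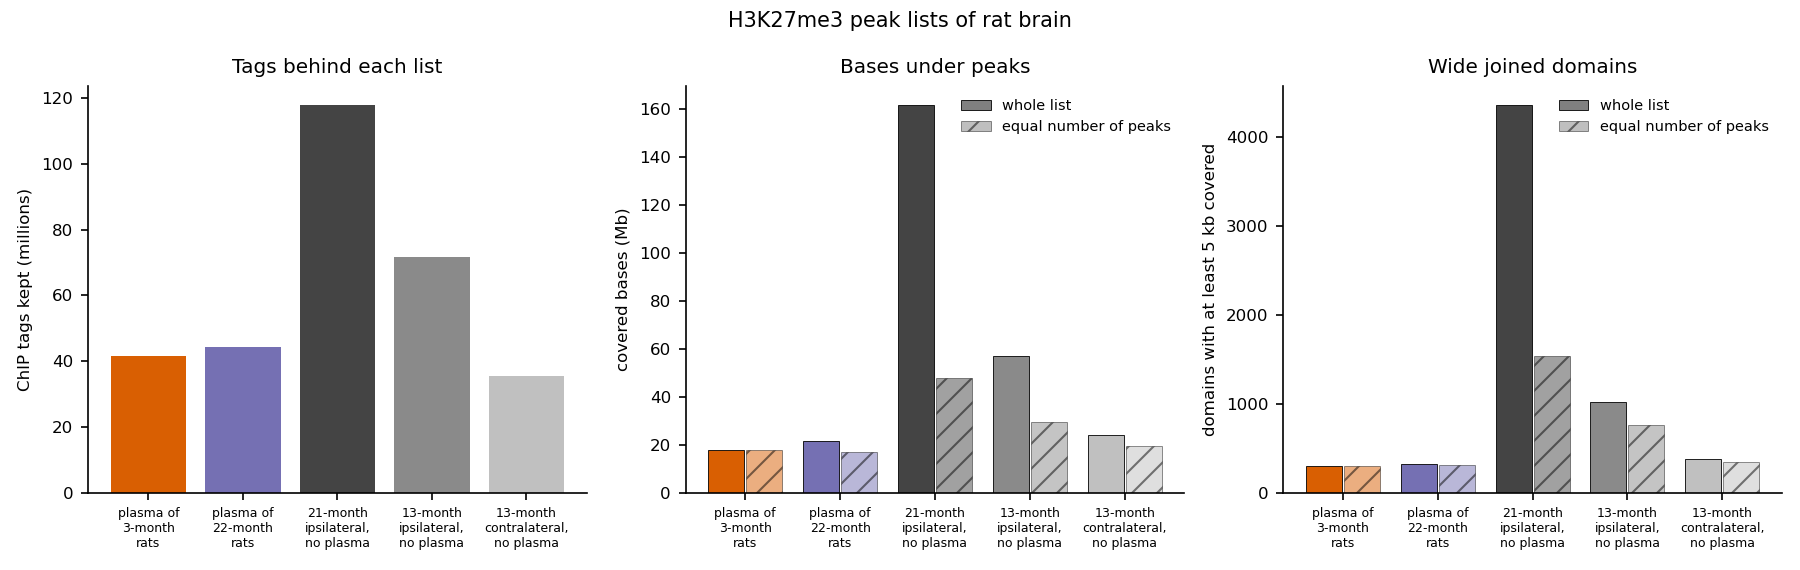
ChIP tags kept after duplicate removal (left), bases under peaks (Mb, middle) and joined domains with at least 5 kb covered (number, right) for 5 of the 6 H3K27me3 lists, whole and cut to 37241 peaks; the 21-month contralateral list is not drawn. The untreated 21-month ipsilateral list is the highest of the 5 in each panel, and the 13-month contralateral list, with 35621686 tags, lies nearest to the plasma lists.

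The strongest untreated H3K27me3 was found again with either plasma, and the rest of the list much less. Of the 1000 untreated peaks with the highest −log10 q-value, 99.8% overlapped a peak with plasma of 3-month rats and 98.2% a peak with plasma of 22-month rats, at a minimum of 1 bp and with whole lists. For untreated ranks 1001 to 5000 the shares were 79.4% and 63.9%. For ranks 5001 to 10000 they were 41.0% and 30.7%, and for ranks 10001 to 20000 they were 22.6% and 18.1%. Among the remaining 280668 untreated peaks 4.36% and 5.62% had a plasma peak. The shallow 13-month contralateral list kept more of the middle ranks than either plasma list, with 93.3%, 65.3% and 42.9% in those 3 classes. The fall with rank was thus present in an untreated list of fewer ChIP tags and was steeper in both plasma lists. That untreated list had a deeper input than either plasma list. It also had 1696 peaks with a fold enrichment of 8 or more, against 105 and 97 with plasma. The untreated 21-month ipsilateral list had 663. The parts of input depth and of enrichment were not tested.

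**Figure D2:**
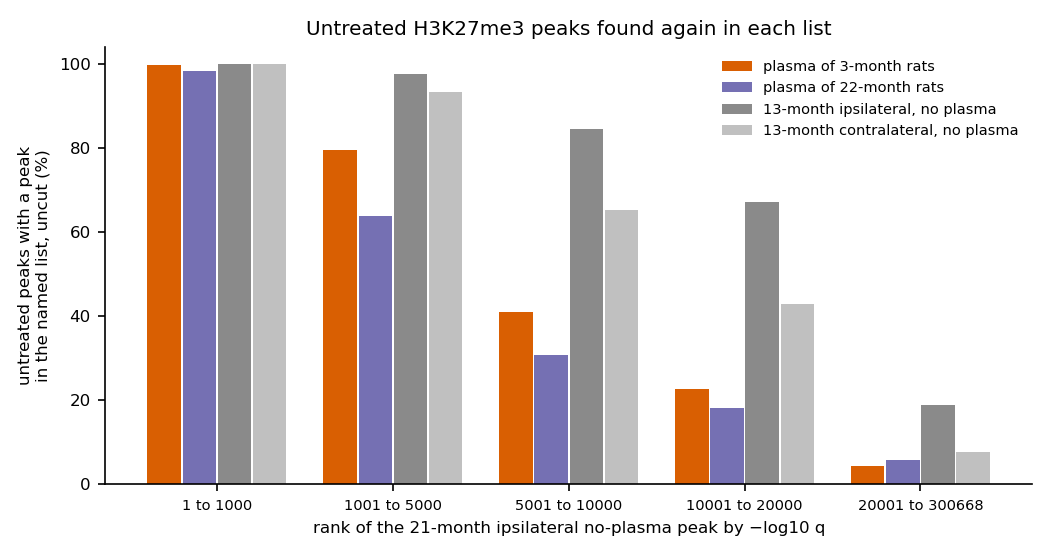
Share of the untreated 21-month ipsilateral H3K27me3 peaks that overlap a peak of the named list by at least 1 bp (%, vertical axis), by their rank in −log10 q-value (horizontal axis), whole lists. The highest class lies above 98% in all 4 lists, and both plasma lists fall below both 13-month lists from rank 1001 to rank 20000.

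In the other direction, the upper ranks of the plasma lists also lay on untreated peaks. With plasma of 3-month rats 95% of ranks 1 to 1000 overlapped a peak of the whole untreated list, 87.1% of ranks 1001 to 5000 and 57.5% of ranks 20001 to 37241. With plasma of 22-month rats the same shares were 75.4% for ranks 1 to 1000, 78.3% for ranks 1001 to 5000 and 44.8% for ranks 20001 to 51178. The top 1000 peaks with 22-month plasma were thus shared less often than those ranked just after them. Strong peaks were long and weak ones short: the median length was 2081 bp in the top class and 293 bp in the last with plasma of 3-month rats, and 1555 bp and 285 bp with plasma of 22-month rats.

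Over whole lists, 34.8% of the peaks with plasma of 3-month rats (12961 of 37241) and 49.7% of those with plasma of 22-month rats (25431 of 51178) had no untreated peak. Untreated peaks without a plasma partner were 93.1% and 92.5% of their list. Shared peaks were 65.2% (64.7% to 65.7%) and 50.3% (49.9% to 50.7%) of the plasma lists, and 6.89% and 7.54% of the untreated list. At equal number the shares of the plasma lists were 39.1% (38.6% to 39.6%) with plasma of 3-month rats and 26.6% (26.2% to 27.1%) with plasma of 22-month rats. The untreated peaks with a partner were then 28.8% and 19.9%. At equal covered bases 22.5% and 15.8% of the plasma peaks were shared, against 73.9% and 55.5% of the untreated ones. Both plasma lists are set against the same untreated list, so their values are not independent of each other.

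Plasma peaks with no untreated partner were short and seldom at promoters. Their median length was 269 bp with either plasma, against 353 bp and 349 bp for the shared peaks of the same lists. Their median fold was slightly higher, at 3.47 and 3.59 against 3.27 and 3.29 for the shared peaks. A 13-month ipsilateral peak overlapped 12.9% and 12.3% of the unshared plasma peaks, against 67.5% and 61.2% of the shared ones. At H3K4me3 peaks lay 2.26% and 1.48% of the unshared plasma peaks and 16.3% and 12.1% of the shared ones. Of all peaks of the untreated list 3.11% did.

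Nearness to the 13-month list depended on how the lists were cut. At equal number the peaks with plasma of 3-month rats overlapped the untreated 21-month list in 39.1% and the 13-month ipsilateral list in 35.1% (34.7% to 35.6%), and those with plasma of 22-month rats did so in 26.6% and 27.2% (26.8% to 27.7%). The 21-month share minus the 13-month share was 3.92 percentage points and -0.628 percentage points. With whole lists it was 16.7 and 13.4 points, where the 21-month list covered 161 Mb and the 13-month list 56.8 Mb. With every list at 17.6 Mb it was -3.60 and -3.59 points, so that both plasma lists then shared more peaks with the 13-month list.

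The measure mattered as well. Of the bases with plasma of 3-month rats, 56.2% lay in untreated 21-month peaks and 51.2% in 13-month peaks at equal number, and 43.6% and 43.1% of those with plasma of 22-month rats did. With whole lists these were 69.7% and 57.7%, and 53.3% and 44.2%. At equal covered bases, where neither untreated list is the larger, they were 43.7% and 45.6%, and 34.6% and 37.5%. The Jaccard index, bases in common over bases in either list, was at equal number 17.8% with the untreated 21-month list and 23.8% with the 13-month list for plasma of 3-month rats. For plasma of 22-month rats it was 13.0% and 18.9%. At equal covered bases it was 27.9% and 29.5% for plasma of 3-month rats, and 20.9% and 23.0% for plasma of 22-month rats. With whole lists it was 7.36% and 15.8%, and 6.73% and 13.9%. The index is lowered by the greater size of the 21-month list except at equal bases, where both measures were slightly higher with the 13-month list for either plasma. The untreated lists of both ages were closer to each other than to either plasma list, with a Jaccard index of 33.3% at equal number and 49.1% at equal bases.

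Among the strongest peaks, sharing with untreated tissue of either age was nearly the same. Of the top 2000 peaks of each list, those with plasma of 3-month rats were shared with the untreated 21-month list in 75.8% and with the 13-month list in 75.0%. Those with plasma of 22-month rats were shared in 59.2% and 59.9%. The untreated 21-month list shared 75.6% of its own top 2000 with the 13-month list. Counted from the plasma peaks, sharing with plasma of 3-month rats lay within counting error of that between untreated ages. With plasma of 22-month rats the share with the untreated 21-month list was lower at every number from 500, where it was 44.0% against 63.6% with plasma of 3-month rats, to 37241. Counted from the untreated 21-month peaks, sharing was lower with both plasmas. Of their top 2000, 61.7% overlapped the top 2000 with plasma of 3-month rats and 46.1% those with plasma of 22-month rats, against the 75.6% at 13 months.

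**Figure D3:**
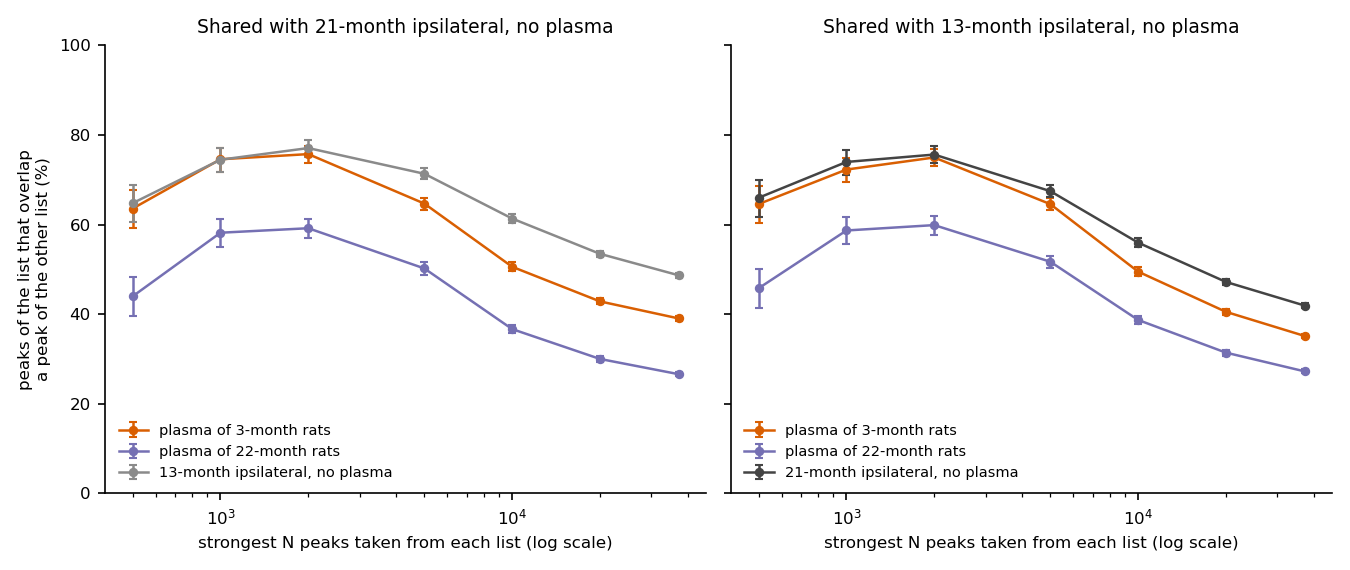
Share of a list's strongest N peaks that overlap one of the strongest N peaks of the untreated 21-month list (left) or the 13-month ipsilateral list (right), in % against N on a log scale; bars are 95% Wilson intervals. Plasma of 3-month rats runs with the untreated list of the other age up to 2000 peaks and below it from 5000, and plasma of 22-month rats lies below both throughout.

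Wide domains, made by joining peaks with gaps of up to 1 kb, were fewer with plasma, and those that were there lay in untreated H3K27me3. There were 305 domains with at least 5 kb covered with plasma of 3-month rats and 325 with plasma of 22-month rats, against 4359 without plasma. At equal number of peaks these were 305, 316 and 1544, and at equal covered bases 305, 317 and 815. The shallow 13-month contralateral list had 377, 351 and 341 under the same cuts. Domains of at least 20 kb numbered 27 and 30 with plasma and 238 without. With whole lists the share of a list's bases in domains of 5 kb or more was 20.2% with plasma of 3-month rats, 17.1% with plasma of 22-month rats and 25.1% without plasma. It was 19.4% in the 13-month ipsilateral, 15.7% in the 13-month contralateral and 21.6% in the 21-month contralateral list, all without plasma. At equal number it was 20.2% and 20.3% with plasma, 30.8% without, and 28.8% and 17.6% in the 13-month ipsilateral and contralateral lists.

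Of the plasma domains nearly all had an untreated counterpart. At equal number 304 of the 305 domains with plasma of 3-month rats held an untreated peak, and the median domain was covered over 84.5% of its span by its own peaks and 95.4% by untreated peaks. With plasma of 22-month rats 310 of 316 held an untreated peak, and the median domain was covered over 85.0% by its own peaks and 94.8% by untreated peaks. H3K4me3 peaks lay in 235 and 229 of these domains. The plasma domains were chosen from the plasma lists, so their own coverage is a description.

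Read from the untreated side, wider domains more often held a plasma peak. The domains were chosen from the untreated list, so this is a description. An overlap of 1 bp sufficed, which wider domains meet more easily. The 96 untreated domains of 20 kb or more at equal number all held a peak of either plasma list, with a median of 64.1% of the span covered with plasma of 3-month rats and 62.5% with plasma of 22-month rats. The 13-month contralateral list covered 62.2% of them. Of the 312 domains of 10 to 20 kb, 97.4% and 92.6% held a plasma peak, and of the 1136 domains of 5 to 10 kb, 88.0% and 63.9% did. In the smallest class the contralateral list had a peak in 97.1%. Domains that also had H3K4me3 held one more often: of those of 5 to 10 kb, 97.9% and 85.4% of the 467 with an H3K4me3 peak held plasma H3K27me3, and 81.2% and 48.9% of the others.

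To compare lists over regions that neither side had chosen, domains with at least 5 kb covered were taken from the 13-month contralateral list, which gave 377. At equal number the median domain was covered over 75.7% of its span with plasma of 3-month rats and 72.1% with plasma of 22-month rats, against 95.2% without plasma. The 13-month ipsilateral list covered 93.2%, and the contralateral list itself covered 78.9%. The median difference from no plasma was -18.4 and -21.8 percentage points, and -1.41 points for the 13-month ipsilateral list. The covered share was lower with plasma of 3-month rats in 374 domains (99.2%) and higher in 3 (0.796%). It was lower with plasma of 22-month rats in 368 (97.6%) and higher in 7 (1.86%). The 13-month ipsilateral list was lower in 253 (67.1%) and higher in 111 (29.4%). Among the other lists without plasma, the contralateral list of 21-month rats was lower in 299 (79.3%), and the shallow 13-month contralateral list, which defined the domains, was lower in 372 (98.7%), with a median difference of -14.6 points.

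Few of these domains lacked a peak altogether. This was so in 0 of 377 (0.00%) with plasma of 3-month rats, in 3 (0.796%) with plasma of 22-month rats and in 0 (0.00%) without plasma. At least 50% of the span was covered in 326 and 282 domains with plasma and in 377 without. The gap narrowed with size. Medians were 68.0% and 58.5% with plasma and 95.4% without in the 243 domains of 5 to 10 kb. They were 84.4% and 83.0% with plasma and 95.8% without in the 24 domains of 20 kb or more.

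**Figure D4:**
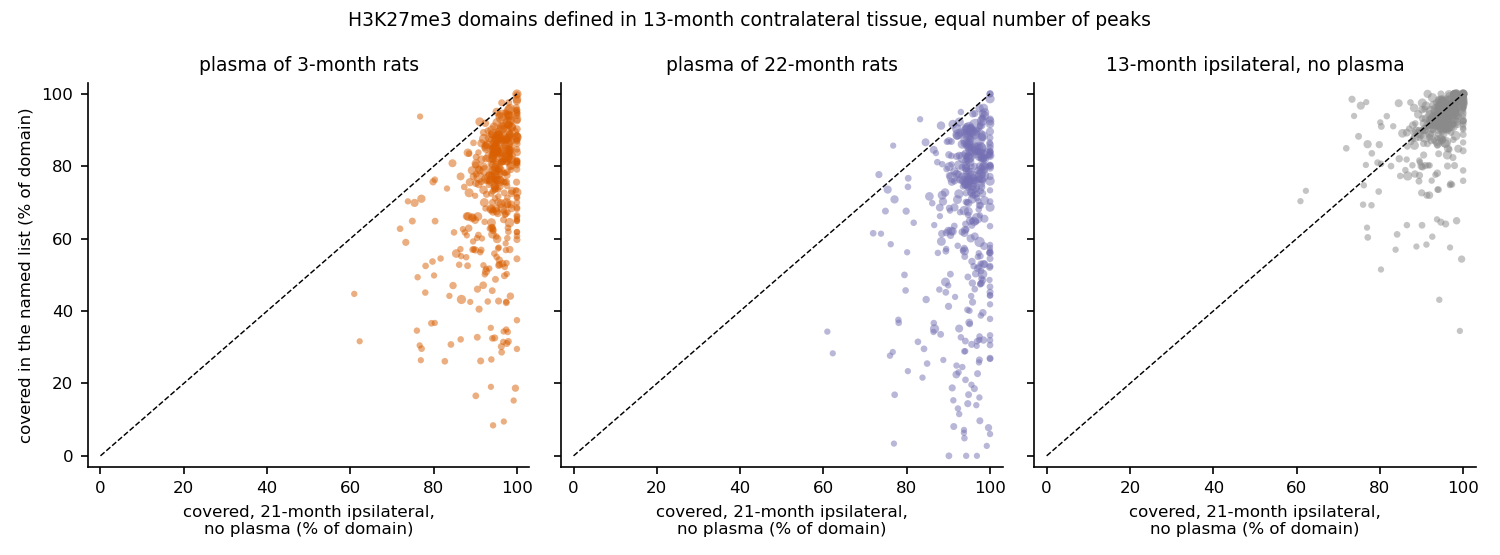
Share of each of 377 domains covered by H3K27me3 peaks (%) in the plasma or 13-month ipsilateral list (vertical axis) against the untreated 21-month ipsilateral list (horizontal axis), at equal number of peaks; point area grows with domain size and the dashed line marks equality. Most domains lie below the line with either plasma, in 374 and 368 cases, while the 13-month domains gather around it.

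The widest domains were covered over most of their span in the plasma lists and nearly throughout without plasma. Positions are those of the lists, on the build the authors used, which no source used here states. The domain with the most covered bases lay at chr10:84106678-84195727, with 79.0 kb covered with plasma of 3-month rats and 78.5 kb with plasma of 22-month rats, against 86.2 kb without plasma and 84.8 kb at 13 months. The next, at chr7:144608493-144661201, had 43.6 kb and 40.8 kb with plasma and 51.7 kb without. Its neighbour at chr7:144541740-144591776 had 46.9 kb and 45.6 kb with plasma and 48.3 kb without. The first of these on chromosome 7 holds 2 H3K4me3 peaks and its neighbour 1. At chr4:32358338-32393340, which holds 8 H3K4me3 peaks, 28.9 kb was covered with either plasma and 32.8 kb without. Across the 10 widest domains the covered share lay between 76.8% and 93.7% with plasma of 3-month rats, between 76.7% and 91.1% with plasma of 22-month rats, and between 90.9% and 98.0% without plasma.

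The largest deficits fell on small domains, most of them without H3K4me3. At chr17:9778523-9785533 peaks covered 9.47% with plasma of 3-month rats and 0% with plasma of 22-month rats, against 96.8% without plasma. At chr5:171945730-171954613 the shares were 8.42% and 0% with plasma and 94.3% without. At chr1:264562272-264570009 they were 15.3% and 2.74% with plasma and 99.2% without. The 13-month ipsilateral list covered 57.6%, 43.1% and 34.5% of these 3 domains, so untreated tissue of the other age was below untreated 21-month tissue there too. Domains nearly complete at 13 months were among them too: chr14:82498170-82504952 had 19.1% and 7.17% with plasma, 93.7% without and 87.8% at 13 months. The domain at chr3:172382942-172388885 had 29.5% and 6.02% with plasma, 100% without and 97.2% at 13 months. Both of them hold 1 H3K4me3 peak.

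Few domains were better covered with plasma. The largest positive difference with plasma of 3-month rats was at chr3:141301200-141308891, with 93.7% covered, and 85.7% with plasma of 22-month rats, against 76.7% without plasma and 97.7% at 13 months. With whole lists the untreated share there was 86.0%. For plasma of 22-month rats it was chr4:50317042-50325194, with 93.0% covered against 83.2% without plasma, while plasma of 3-month rats had 73.9%. The other positive differences were below those, and with plasma of 3-month rats only 3 of the 5 named domains were above no plasma.

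Most strong peaks with plasma of 22-month rats had no untreated peak, while few of those with plasma of 3-month rats lacked one; the difference between plasmas was not tested. The fold enrichment per peak is the authors', and a fold of 8 is not adjusted for differences in depth between lists. Of 105 peaks with a fold of 8 or more with plasma of 3-month rats, 7 had no untreated peak. Of 97 with plasma of 22-month rats, 68 had none. Over all peaks of the 2 plasma lists 34.8% and 49.7% had none, and at a fold of 4 or more 34.6% and 54.7%. In the reverse direction 9 of the 663 untreated peaks of that strength had no partner with plasma of 3-month rats and 12 had none with plasma of 22-month rats. Over all untreated peaks these were 93.1% and 92.5%.

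The 68 peaks with plasma of 22-month rats had a median length of 572 bp, against 1817 bp for the 29 that did have an untreated partner. Chromosome 1 held 32 of them, and 7179 of the 51178 peaks of the whole list. An H3K4me3 peak of untreated tissue overlapped 28, while an H3K9ac peak overlapped 0 with plasma of 22-month rats and 1 without plasma. In the whole list 6.82% lay at H3K4me3 and 7.14% at H3K9ac with the same plasma. Of the 68, 64 also had a peak of any fold with plasma of 3-month rats, 48 in the 13-month contralateral list, 22 in the 13-month ipsilateral list and 8 in the 21-month contralateral list. For all peaks with plasma of 22-month rats these shares were 20.3%, 19.8%, 36.9% and 40.8%. In 14 of the 68 the fold, −log10 q-value and pileup were the same as in another of them. Peaks at a fold of 8 or more were looked at in this detail after their values had been seen.

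By the rule for named peaks, the highest folds with plasma of 22-month rats and no untreated peak were 18.8 at chr16:22099246-22099665 and 17.8 at both chr1:39271449-39272274 and chr1:181994130-181995102. Next came 17.1 at chr1:39371386-39372349 and 16.3 at chr1:265469252-265469685. All 5 lay at H3K4me3 peaks and none at an H3K9ac peak with the same plasma. With plasma of 3-month rats the highest was 12.5 at chr1:195841903-195842509, followed by 10.05 at chr1:55689405-55690431 and 9.66 at chr17:89438580-89440550. Next came 9.56 at chr7:2175893-2178047 and 9.17 at chr20:40854468-40854773. All of those lay at H3K4me3 peaks and at H3K9ac peaks with the same plasma, and all had a 13-month ipsilateral H3K27me3 peak.

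The untreated peaks of highest fold with no partner in a given plasma list mostly had a peak of that list nearby. All 5 named against each plasma overlapped a peak of the other plasma list. Against plasma of 3-month rats the strongest was chrX:34588133-34591031 with a fold of 8.76, and the nearest peak with that plasma was 671628 bp away. Against plasma of 22-month rats it was chr20:4895254-4895806 with a fold of 10.4, and the nearest peak with that plasma was 2116 bp away. The others of the 5 against each plasma had folds from 8.15 to 9.44, and a peak with the same plasma lay within 3 kb of each.

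H3K27me3 at promoter-type regions was measured at the 30356 H3K4me3 peaks of untreated 21-month ipsilateral tissue, since no H3K4me3 list with plasma was used here. With whole lists 12.8% of them overlapped H3K27me3 with plasma of 3-month rats and 10.4% with plasma of 22-month rats, against 28.3% without plasma. At equal number the shares were 12.8% (12.4% to 13.2%) and 9.12% (8.80% to 9.45%) with plasma and 16.6% (16.2% to 17.0%) without. The 13-month ipsilateral list also marked 16.6%. At equal covered bases they were 12.8% and 9.22% with plasma and 10.2% without, so plasma of 3-month rats was then the higher. The sign of that difference thus turned with the cut, while plasma of 22-month rats was below no plasma under all 3.

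**Figure D5:**
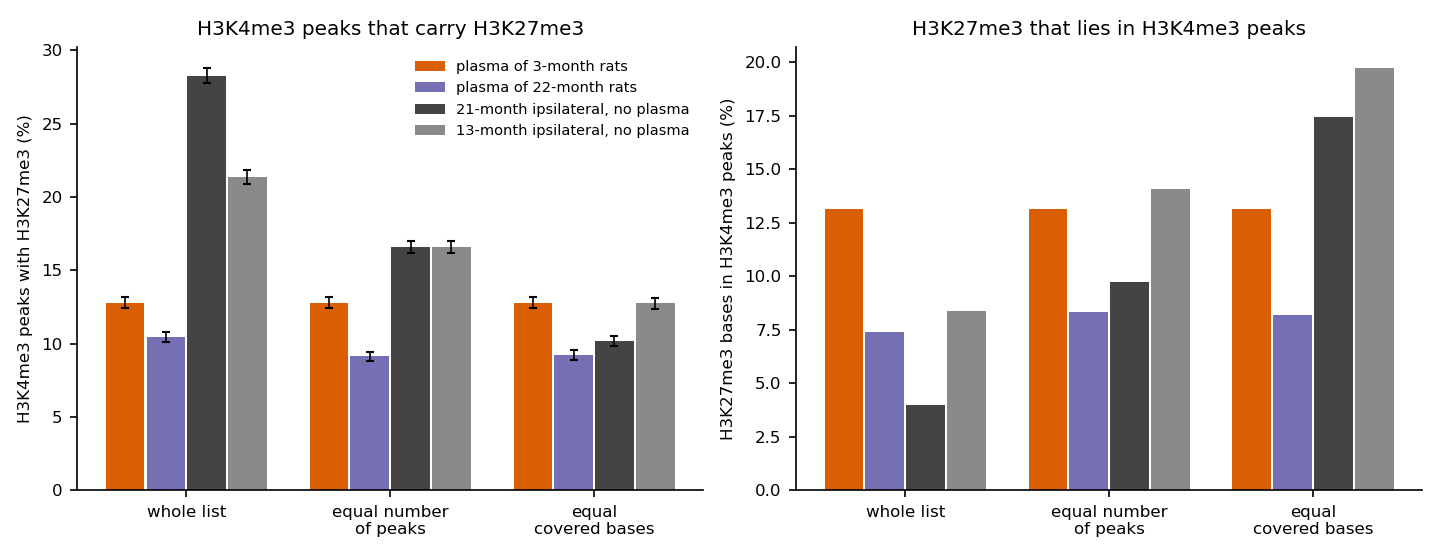
Share of 30356 H3K4me3 peaks that overlap H3K27me3 (%, left, with 95% Wilson intervals) and share of H3K27me3 bases that lie in H3K4me3 peaks (%, right), for whole lists, at equal number of peaks and at equal covered bases. On the left plasma of 3-month rats stays at 12.8%, and the untreated list changes most with the cut; on the right the untreated list is lowest with whole lists and above both plasma lists at equal bases.

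Bivalent regions of untreated tissue were found again in part. At equal number 65.7% of the untreated H3K4me3 peaks with H3K27me3 also had it with plasma of 3-month rats and 44.2% with plasma of 22-month rats, and 83.2% had it at 13 months. In 1.88% of all H3K4me3 peaks (572) H3K27me3 was present with plasma of 3-month rats and not without plasma, and in 5.69% (1726) the reverse held. For plasma of 22-month rats these were 1.79% (544) and 9.27% (2813). With whole lists the plasma-only shares were 0.936% (284) and 1.29% (393), and the untreated-only shares 16.4% (4987) and 19.1% (5811). At equal covered bases the order turned for plasma of 3-month rats, with 4.19% (1273) plasma-only and 1.56% (473) untreated-only. For plasma of 22-month rats these were 2.72% (825) and 3.66% (1111). The untreated regions found again were then 84.7% and 64.0% with plasma and 90.6% at 13 months, so these shares depended on the cut. At equal number the regions marked in both lists were wide, with a median H3K4me3 length of 923 bp and 872 bp. The plasma-only ones were narrow, with 365 bp and 259 bp.

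Several regions of high H3K4me3 fold, named by rule, were in part covered in 1 list only. The H3K4me3 peak at chr8:54132198-54135055, with a fold of 22.6, was covered over 0% with either plasma, over 32.1% without plasma at equal number and over 68.4% in the whole untreated list. The peak at chr5:71680778-71685989, with a fold of 19.5, was covered over 0% with either plasma and over 17.4% without at equal number. The 13-month ipsilateral list without plasma also covered 0% of both peaks at equal number, and 21.0% and 23.4% as a whole list. The peak at chr3:51883086-51885563, with a fold of 19.9, was covered over 0% with plasma at equal number, over 39.6% without, and over 24.3% at 13 months. All 3 had H3K9ac peaks with plasma and without. In the other direction, chr20:156725-157817, with a fold of 26.9, was covered over 54.0% with plasma of 3-month rats, against 0% without plasma at equal number and 76.3% in the whole untreated list. The untreated H3K27me3 there existed and had been removed by the equal number. At chr14:8079605-8083782, with a fold of 24.9, plasma of 3-month rats covered 9.67% and the whole untreated list 0%.

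Seen from H3K27me3, 11.4% of the peaks with plasma of 3-month rats and 7.89% of those with plasma of 22-month rats lay at H3K4me3 at equal number, against 12.5% without plasma. By bases it was 13.1% and 8.34% with plasma and 9.73% without, so plasma of 3-month rats was above and plasma of 22-month rats below. At equal covered bases the shares were 13.1% and 8.17% with plasma and 17.4% without, and both were below. H3K4me3 was most frequent among the strongest peaks, with plasma and without. It overlapped 52.0% of ranks 1 to 1000 and 5.75% of ranks 20001 to 37241 with plasma of 3-month rats. With plasma of 22-month rats it overlapped 37.1% of ranks 1 to 1000 and 3.94% of ranks 20001 to 51178. For the top 1000 and the ranks from 20001 on, the untreated 21-month ipsilateral list had 59.3% and 1.96%. The 13-month contralateral list had 67.2% and 4.51%.

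H3K9ac lists of the same plasma were set beside H3K27me3. With whole lists 7.15% of the H3K27me3 peaks with plasma of 3-month rats and 7.14% of those with plasma of 22-month rats overlapped H3K9ac, against 6.03% without plasma. With H3K27me3 cut to 37241 peaks and H3K9ac to 50651, the shares were 7.15% and 6.26% with plasma and 13.1% without, so the order turned. Of the H3K4me3 peaks that also had H3K27me3, 55.9% and 64.4% had H3K9ac with plasma and 79.3% without at these numbers. Among H3K4me3 peaks without H3K27me3 these were 63.3% and 70.6% with plasma and 65.1% without. The H3K4me3 peaks are those of untreated tissue for every list, so regions with both methylation marks were not observed with plasma. Untreated H3K4me3 peaks that overlapped plasma H3K27me3 had H3K9ac of the same plasma less often than the others did. Those that overlapped H3K27me3 without plasma had untreated H3K9ac more often than the others did. This order held at these numbers and with whole lists. Whether regions with both marks differ with plasma was not tested. With the H3K27me3 and H3K9ac lists of 13 months the values were 68.0% with H3K27me3 and 66.0% without it, at these numbers.

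The plasma peaks were also placed differently over the chromosomes, which was seen after the values were known. At equal number chromosome 2 held 7.68% of the covered bases with plasma of 3-month rats and 8.84% with plasma of 22-month rats, against 5.05% without plasma and 6.63% at 13 months. Chromosome 12 held 2.94% and 2.05% with plasma, against 4.38% without and 3.44% at 13 months. Lists without plasma differed among themselves too. In the contralateral lists of 21-month and 13-month rats chromosome 2 held 3.98% and 5.71%, and chromosome 12 held 5.18% and 4.55%. Chromosomes 5, 10 and 19 were also lower with plasma: chromosome 5 held 6.75% and 5.93% against 8.63%, chromosome 10 held 7.41% and 6.51% against 8.78%, and chromosome 19 held 2.51% and 1.96% against 3.66%. At equal number, in each of these 5 chromosomes plasma of 22-month rats lay farther from no plasma than plasma of 3-month rats did, and the 13-month list lay between plasma and no plasma. With whole lists the gaps on all 5 were smaller. Chromosome 2 then held 7.68% and 8.86% with plasma against 6.16% without. Chromosome 12 held 2.94% and 1.86% against 3.49%, and chromosome 19 held 2.51% and 2.12% against 3.52%. Chromosome 5 then held 6.75% and 5.93% with plasma against 7.14% without. Chromosome 10 held 7.41% and 6.39% against 7.43%, and at 7.45% the 13-month list was not between them.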

How the data were processed

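ChIP-seq libraries were prepared with the ThruPLEX kit and sequenced as paired ends on an Illumina NextSeq 500, per the labels' protocols. Among the tools in the submitters' processing notes are Bowtie2, HOMER and cutadapt, with neither role nor version. No source used here states the genome build. Narrow peaks were called with MACS2 2.1.1.20160309 against input, keeping 1 tag per position, at a q-value of 0.05 and an effective genome size of 2.7 Gb, per the file headers. For each peak the authors deposited the pileup, a signal (coverage) at the summit, the fold enrichment, a ratio over local background, and the −log10 q-value. Libraries of a group were pooled in the list, per the file headers. Narrow calling breaks wide H3K27me3 into short peaks, and deeper input and ChIP let weaker stretches pass.

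From these, 11 of 16 lists were used. Overlap of at least 1 bp, covered bases, Jaccard index and domains joined at 1 kb were computed on sorted intervals with pandas 2.3.3, scipy 1.17.1 and numpy 2.4.6 under Python 3.11.15, for whole lists, for the 37241 peaks of highest −log10 q-value (ties by fold) and for 17.6 Mb per list. The interval code was tested on simulated data. Named regions followed a rule: the 10 domains with most covered bases in the 13-month contralateral list; for each plasma the 5 largest differences in covered share in either direction; the 5 peaks of highest fold with no partner; and the 5 H3K4me3 peaks of highest fold marked on 1 side, on assembled chromosomes. Gene lists were not applied, since no annotation of the lists' build was used. The groups, lists and rules were chosen with earlier results of these data known. Alternatives were ranking by fold, stricter q-value and fold, other joining distances, a 50% overlap, assembled chromosomes and other domains.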

Additional observations from a re-analysis of the deposited data

Results flagged for a closer look

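In 2 measures the plasma groups lay on opposite sides of a yardstick, each from 1 list per group, and the difference between plasmas was not tested. At equal number of peaks the share of plasma peaks overlapping the untreated 21-month list, minus the share overlapping the 13-month list, was 3.92 percentage points with plasma of 3-month rats and -0.628 percentage points with plasma of 22-month rats. At equal number the share of H3K27me3 bases inside H3K4me3 peaks, minus that without plasma, was 3.39 percentage points with plasma of 3-month rats and -1.39 percentage points with plasma of 22-month rats. ChIP duplicates were 38% and 46% in these libraries, and their part in the differences was not tested.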

How the results depend on the processing

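The share of plasma peaks with an untreated partner moved with every cut. For plasma of 3-month and of 22-month rats it was 39.1% and 26.6% at equal number, 37.3% and 25.0% with 50% of the peak covered, 65.2% and 50.3% with whole lists, 22.5% and 15.8% at equal bases, 36.1% and 18.3% ranked by fold, 49.6% and 36.3% at a −log10 q-value of 5 or more, and 34.6% and 17.3% at a fold of 4 or more. Plasma of 22-month rats was the lower in each of these. The 21-month minus 13-month share was, in points and under these 6 alternatives in that order, 5.68 and 0.814, 16.7 and 13.4, -3.60 and -3.59, then 4.01 and -1.98, 1.59 and -1.79, and 0.152 and -3.52. It changed sign at equal bases for plasma of 3-month rats, and with whole lists or 50% coverage for plasma of 22-month rats. The difference in marked H3K4me3 peaks was -3.80 and -7.47 points at equal number, -7.01 and -9.38 with 50% covered, -15.5 and -17.8 with whole lists, 2.64 and -0.942 at equal bases, -1.86 and -8.73 by fold, -3.41 and -5.82 by q-value, and -5.11 and -7.97 at a fold of 4. The Jaccard index was 17.8% and 13.0% at equal number, 7.36% and 6.73% with whole lists and 27.9% and 20.9% at equal bases. Domains with 5 kb covered stayed between 294 and 336 with plasma of 3-month rats and between 283 and 380 with plasma of 22-month rats, while untreated ones numbered 4359, or 6440 joined at 3 kb, 2520 joined at 0.5 kb, 1544 at equal number and 815 at equal bases. The median domain difference was -18.4 and -21.8 points, -20.8 with whole lists for plasma of 22-month rats, -15.9 and -19.6 at equal bases, -17.8 and -33.1 by fold, -25.7 and -28.3 over domains of the 21-month contralateral list, and -11.4 and -14.8 over those of 10 kb or more. The H3K9ac difference was 1.12 and 1.11 points with whole lists and changed sign at equal number, -5.98 and -6.86. The cause was not tested. Leaving out unplaced sequences changed none of the overlap or H3K4me3 values by more than counting error. No paired analysis was possible because each list pools a group's libraries and carries no replicate number, and for the same reason no replicate could be left out. The alternatives for gene lists were not run. The plasma lists had 0.354 and 0.377 of the untreated tags, and the part of depth in peaks missing with plasma was not tested.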
